A study of Mus musculus with 11 samples.

Results

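The neuromuscular junction is the synapse through which a motor nerve drives a muscle fibre, and 10 genes of this synapse and of the response to its loss were followed across mouse gastrocnemius muscles in which the gene for the transcription factor ZEB1 or ZEB2 was targeted for deletion in the fibres. The genes were the acetylcholine receptor subunits Chrna1, Chrnb1, Chrnd and Chrne, the receptor kinase Musk, the synaptic esterase Ache and its collagen anchor Colq, and the transcription regulators Myog, Hdac4 and Dach2. They were picked out by gene symbol from a list drawn up with earlier results of these data known, and each matched 1 of the 55385 genes in the deposited count table. Gastrocnemius, a calf muscle of mixed fibre type, was dissected after 36 h of fasting, which makes muscle waste. RNA sequencing gave 11 libraries, each pooled from 2 mice. All 10 genes passed the filter on low counts in the table as a whole, and all values below are TMM-scaled CPM, the count per M counts of the scaled library.

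ZEB1 knockout mice carried ZEB1 flx/flx with HSACre (3 libraries, ZEB1_KO 1 to 3) and were set against ZEB1 flx/flx mice without Cre (2 libraries, ZEB1_control 2 and 3). ZEB2 knockout mice carried ZEB2 flx/flx with HSACre (3 libraries, ZEB2_KO 1 to 3) and were set against ZEB2 flx/flx mice without Cre (3 libraries, ZEB2_control 1 to 3). HSA-Cre is a recombinase driven by the human skeletal actin promoter and is active in muscle fibres, so nerve, Schwann and other cells of the whole muscle keep the floxed genes. No group carried Cre without floxed alleles, so loss of a ZEB gene and presence of Cre cannot be told apart. The sources used here give neither strain nor age, and p-values measure the spread between pools of mice.

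At the junction the nerve releases acetylcholine, which opens receptors packed into the fibre membrane, and acetylcholinesterase held in the cleft by ColQ ends the signal. The nerve also releases agrin, which binds LRP4 and switches on MuSK, and MuSK with DOK7 drives rapsyn to cluster the receptors. The nuclei under the synapse transcribe these genes locally, and nerve activity silences them in the rest of the fibre. When the nerve is cut, HDAC4 accumulates and represses Dach2, itself a repressor of the gene for myogenin. Myogenin then switches on receptor genes along the whole fibre, together with the ubiquitin ligase genes Trim63 and Fbxo32 that drive wasting. Loss of innervation is known to raise Myog, Chrna1, Musk and the fetal subunit gene Chrng and to lower Dach2.

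ZEB proteins and the myogenic factors both bind E-boxes, so the E-boxes close to the start sites are shown for the 4 genes that denervation is known to raise or that mark the mature synapse and for the beta subunit, which carries a ZEB-type box. Promoters came from RefSeq (GRCm38.p6), where 8 of the 10 genes matched (not Chrnd or Colq), with 9 start sites in all, since Dach2 had 2. The 150 bases before the start follow, in lower case, with each E-box (CANNTG) and each N-box (CCGGAA or TTCCGG, the motif through which ETS factors act in synaptic nuclei) in capitals.
Myog, chr1:134289854-134290003, plus strand: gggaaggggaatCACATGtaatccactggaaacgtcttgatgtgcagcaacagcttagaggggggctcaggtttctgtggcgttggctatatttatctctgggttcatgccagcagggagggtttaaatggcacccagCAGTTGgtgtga
Chrna1, chr2:73580339-73580488, minus strand: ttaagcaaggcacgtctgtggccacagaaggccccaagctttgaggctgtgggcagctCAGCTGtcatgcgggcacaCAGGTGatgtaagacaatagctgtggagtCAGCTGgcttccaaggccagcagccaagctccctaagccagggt
Chrnb1, chr11:69795938-69796087, minus strand: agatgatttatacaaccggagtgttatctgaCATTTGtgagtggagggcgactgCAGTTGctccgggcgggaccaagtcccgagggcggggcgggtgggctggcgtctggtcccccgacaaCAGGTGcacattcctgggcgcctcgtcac
Chrne, chr11:70619195-70619344, minus strand: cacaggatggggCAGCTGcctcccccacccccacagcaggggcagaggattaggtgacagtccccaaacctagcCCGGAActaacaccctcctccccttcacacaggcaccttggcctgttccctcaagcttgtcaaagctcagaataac
Musk, chr4:58285812-58285961, plus strand: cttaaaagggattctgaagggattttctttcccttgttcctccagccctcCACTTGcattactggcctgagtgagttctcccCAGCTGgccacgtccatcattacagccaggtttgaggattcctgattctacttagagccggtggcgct
Both strands of the 250 bases before each start were searched. Myog held E-boxes 138 and 12 bases before the start, Chrna1 held them 92, 73 and 44 bases before it, and Musk 177, 100 and 68 bases before it. The E-box form to which ZEB proteins bind best, CAGGTG or CACCTG (a subset of the E-boxes), lay 73 bases before the start of Chrna1 and 29 bases before that of Chrnb1, and in no other promoter of the 8 genes. Chrne held the set's single N-box, 76 bases before its start, and an E-box at 138 bases. Among all 32817 promoters in the table, 66.2% held an E-box in this window, 17.2% the ZEB-type form and 12% an N-box, so these matches describe the sequences and identify no bound site.

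Total counts ran from 27.3 M to 46.3 M per library. Zeb1 stood at 28.4, 28.6 and 30.4 CPM in ZEB1 knockouts, against 41.2 and 51.1 CPM in ZEB1 controls, and Zeb2 at 18.3, 14.4 and 17.7 CPM in ZEB2 knockouts, against 24.1, 23.1 and 25.8 CPM in ZEB2 controls, so each library lay on the side that its label gives. Zeb1 had adjusted p = 0.800 in ZEB1 knockouts and Zeb2 adjusted p = 0.0775 in ZEB2 knockouts (edgeR quasi-likelihood, Benjamini-Hochberg over all genes tested). Zeb1 also differed in the ZEB2 line, with means of 67.8 CPM in ZEB2 knockouts and 47.8 CPM in ZEB2 controls (log2 fold change 0.50, edgeR adjusted p = 0.0787). A gene count includes exons outside the deleted part. Muscle fibre genes summed to between 72057 and 91588 CPM in all libraries, while 4 of 8 motor axon markers were at 0 in every library and the 8 together summed to 0.197 to 0.781 CPM. Transcripts of the motor axon were thus nearly absent from the RNA. The pools differed in sex. Y-linked genes summed to 0, 0 and 209.8 CPM in ZEB1 knockouts and 0 and 162.9 CPM in ZEB1 controls, and to 215.7, 256.4 and 378.2 CPM in ZEB2 knockouts and 117.7, 249.9 and 0 CPM in ZEB2 controls.

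Compared per kilobase of exon, the members spanned a wide range of levels. Median levels over the 11 libraries were 11 CPM per kb for Chrnb1, 5.97 for Musk, 3.82 for Chrna1, 3.66 for Chrne, 2.72 for Myog, 2.31 for Hdac4, 1.74 for Ache, 1.39 for Colq, 0.596 for Chrnd and 0.251 for Dach2. The beta subunit stood apart from the other receptor subunits: its lowest library, 8.75 CPM per kb, lay above the highest library of each of them. Chrna1 and Chrne overlapped, at 2.93 to 4.70 and 1.87 to 5.70 CPM per kb. Among genes next to each other in this order, only Chrnd and Dach2 were separate in all libraries, at 0.385 to 1.08 and 0.0938 to 0.330 CPM per kb. The other neighbours overlapped, such as Ache at 0.469 to 3.64 and Colq at 0.622 to 1.76 CPM per kb. Musk ran from 1.06 to 30.5 CPM per kb and crossed most of the others. The fetal subunit gene Chrng, which denervated muscle switches back on, was close to the floor of the assay and did not pass the low-count filter. It had 2, 3 and 1 counts in ZEB1 knockouts against 6 and 5 in ZEB1 controls, and 1, 2 and 0 counts in ZEB2 knockouts against 2, 7 and 5 in ZEB2 controls. A count of 0 allows up to 3 counts, and no library carried a high level of the fetal subunit. Each knockout library had fewer counts per M than any control library of its line. In edgeR without the filter its log2 fold change was -1.502 in ZEB1 knockouts (adjusted p = 1.000) and -2.25 in ZEB2 knockouts (adjusted p = 0.206), values that depend on the prior count.

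**Figure D1:**
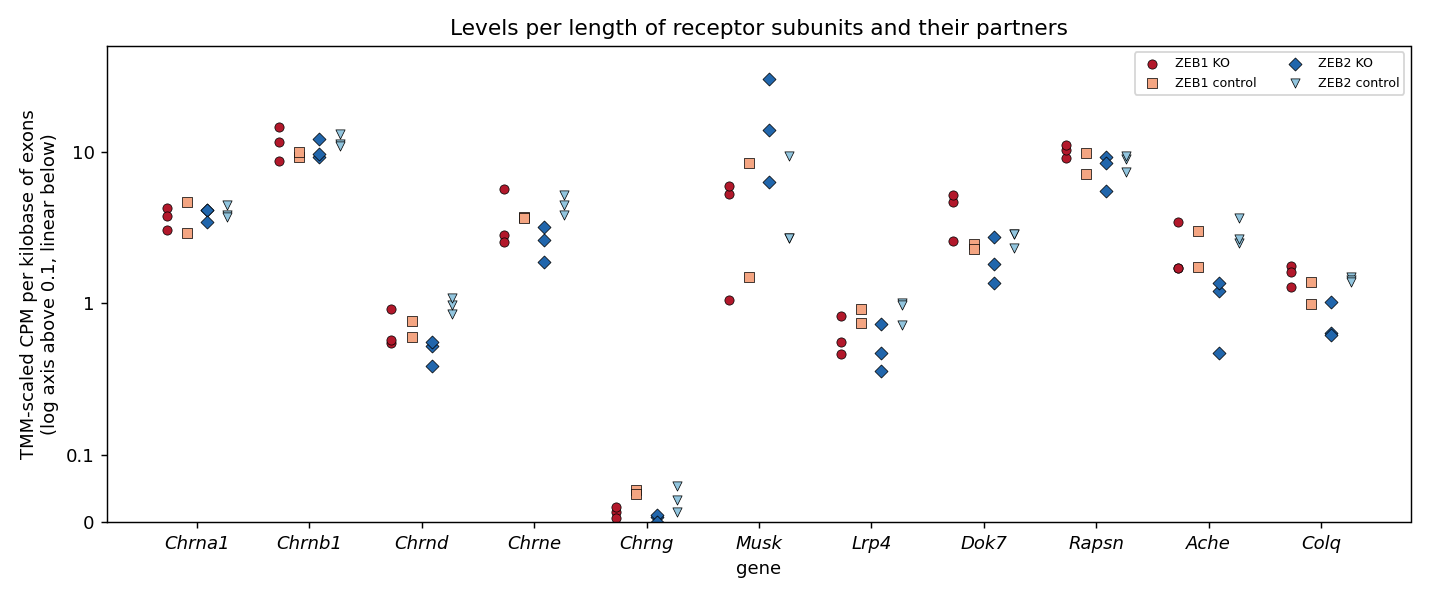
TMM-scaled CPM per kilobase of exon (log axis) for the receptor subunits and other synaptic genes in each of the 11 libraries. Chrnb1 lies highest among the receptor subunits, and Musk spreads from 1.06 to 30.5 CPM per kb.

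In ZEB2 knockouts the adult receptor genes split, by their levels in single libraries, into a pair with lower values and a pair that overlapped with the controls. Chrnd, the delta subunit, and Chrne, the epsilon subunit that marks the mature synapse, were lower in every knockout library than in any control library, whereas Chrna1 and Chrnb1 overlapped between the groups. Chrnd (chr1:87190607-87200070, plus strand) had 1.73, 1.84 and 1.27 CPM in ZEB2 knockouts, against 2.78, 3.22 and 3.55 CPM in ZEB2 controls. The log2 fold change was -0.98 ± 0.26 (SE, edgeR, unadjusted p = 0.00309, adjusted p = 0.0787). Chrne (chr11:70614883-70619216, minus strand) had 4.45, 5.43 and 3.15 CPM in ZEB2 knockouts, against 7.55, 6.44 and 8.83 CPM in ZEB2 controls. Its log2 fold change was -0.81 ± 0.30 (SE, edgeR, unadjusted p = 0.0220, adjusted p = 0.107), so neither subunit passed the threshold of 0.05 over all genes. With the male share of each pool as a covariate the log2 fold change was -0.46 for Chrne and -0.43 for Chrnb1. In that fit the effect sizes did not set Chrne apart from Chrnb1.

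Chrna1 (chr2:73563215-73580338, minus strand), the subunit that holds the main part of the acetylcholine site, had 18.04, 18.2 and 15.2 CPM in ZEB2 knockouts and 19.6, 16.8 and 16.2 CPM in ZEB2 controls. Its log2 fold change of -0.032 ± 0.19 (SE) was far within the spread. Chrnb1 (chr11:69784036-69795943, minus strand) had 23.4, 24.6 and 30.6 CPM in ZEB2 knockouts and 28.6, 33.1 and 27.8 CPM in ZEB2 controls, a log2 fold change of -0.19 ± 0.18 (SE) and of -0.43 with the male share as a covariate. Set per length against Chrna1 in the same library, Chrne stood at 0.640, 0.775 and 0.538 in ZEB2 knockouts and at 0.999, 0.998 and 1.41 in ZEB2 controls. The delta subunit gave 0.128, 0.135 and 0.111 in ZEB2 knockouts and 0.189, 0.257 and 0.292 in ZEB2 controls. Both ratios were lower in every knockout library. The ratio of Chrne to Chrnd overlapped between the groups, at 4.998, 5.74 and 4.84 in ZEB2 knockouts and 5.27, 3.89 and 4.83 in ZEB2 controls. In whole muscle, fewer fibres or synaptic nuclei and less RNA from each of them cannot be told apart.

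The enzyme of the synaptic cleft and its anchor were both lower in ZEB2 knockouts. Ache (chr5:137287519-137294466, plus strand) had 5.55, 6.26 and 2.17 CPM in ZEB2 knockouts, against 11.6, 12.4 and 16.8 CPM in ZEB2 controls. That is a log2 fold change of -1.54 ± 0.41 (SE, edgeR, unadjusted p = 0.00337, adjusted p = 0.0787). Colq (chr14:31523082-31591343, minus strand) had 2.42, 3.89 and 2.37 CPM in ZEB2 knockouts, against 5.69, 5.41 and 5.28 CPM in ZEB2 controls. Its log2 fold change was -0.91 ± 0.23 (SE, edgeR, unadjusted p = 0.00232, adjusted p = 0.0775). The ratio of Colq to Ache per length overlapped, at 0.529, 0.755 and 1.33 in ZEB2 knockouts and 0.598, 0.532 and 0.381 in ZEB2 controls. Genes that overlap an exon span of Colq on the same strand (Gm49387, at most 11 counts in a library) or of Ache on the opposite strand (Gm42456, at most 2 counts) held few counts.

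Of the transcription regulators, Dach2 was lower and Hdac4 higher in every ZEB2 knockout library, while Myog did not follow. Dach2 (chrX:113297510-113836386, plus strand) had 0.926, 1.22 and 1.04 CPM in ZEB2 knockouts, against 3.12, 3.25 and 2.88 CPM in ZEB2 controls. With a log2 fold change of -1.53 and an SE of 0.25 it had the smallest unadjusted p of the members, 8.24e-05 (edgeR, adjusted p = 0.0775). Between 31 and 53 counts per knockout library and 101 to 107 per control library lay behind these values. Dach2 lies on the X chromosome and the pools differed in sex. In the pools with the least Xist RNA of each ZEB2 group, Dach2 was at 1.22 CPM in ZEB2_KO 2 (2.09 CPM of Xist) and at 3.25 CPM in ZEB2_control 2 (0.419 CPM of Xist). With the male share of each pool as a covariate the log2 fold change was -1.59 (edgeR, adjusted p = 0.324).

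Hdac4 (chr1:91928779-92195699, minus strand), the deacetylase that represses Dach2 after denervation, had 36.5, 41.2 and 64.7 CPM in ZEB2 knockouts, against 30.1, 31.9 and 28.2 CPM in ZEB2 controls. The log2 fold change was 0.66 ± 0.26 (SE, edgeR, unadjusted p = 0.0292, adjusted p = 0.118), and it was 0.39 without ZEB2_KO 3, the highest library. Myog (chr1:134289989-134292548, plus strand), the gene for myogenin, had 4.78, 3.04 and 2.53 CPM in ZEB2 knockouts and 3.80, 3.45 and 4.09 CPM in ZEB2 controls. The groups overlapped, with a log2 fold change of -0.14 and an SE of 0.33. Low Dach2 thus stood beside Myog and Chrna1 levels that overlapped between the groups.

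Musk (chr4:58285960-58374303, plus strand), the kinase at the centre of receptor clustering, had 24.0, 52.4 and 115 CPM in ZEB2 knockouts and 10.3, 35.6 and 10.1 CPM in ZEB2 controls. ZEB2_KO 3 was the highest of all libraries, and ZEB2_control 2 lay above ZEB2_KO 1, so the groups overlapped. The log2 fold change was 1.77 ± 0.86 (SE, edgeR, unadjusted p = 0.0667, adjusted p = 0.176). It was 1.06 without ZEB2_KO 3 and 0.58 with the male share of each pool as a covariate.

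In the ZEB2 comparison, 0 of 10 members passed an adjusted p of 0.05 in edgeR, where 0% of the 15416 genes tested did, and limma-voom called 0 as well. The smallest adjusted p of any gene was 0.0775. Knockout and control libraries did not overlap for 6 of 10 members, 5 lower and 1 higher, where 43.4% of all genes did not overlap (22.1% lower, 21.3% higher). These 6 members also had an unadjusted p under 0.05, against 33.2% of all genes. DESeq2 called 4 members, all lower, against 19.4% of genes in either direction and 8.91% lower. They were Dach2 (DESeq2 adjusted p = 0.000119), Ache (0.00653), Colq (0.0123) and Chrnd (0.0152). An edgeR fit on the ZEB2 groups alone called 5 members, the same 4 and Chrne, with adjusted p between 0.0388 and 0.0497, where it called 14.2% of the 14673 genes it tested. Without a low-count filter edgeR called 1 member, Dach2, against 1.29% of genes. The median log2 fold change over the 10 members was -0.50, against -0.047 over all genes.

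**Figure D2:**
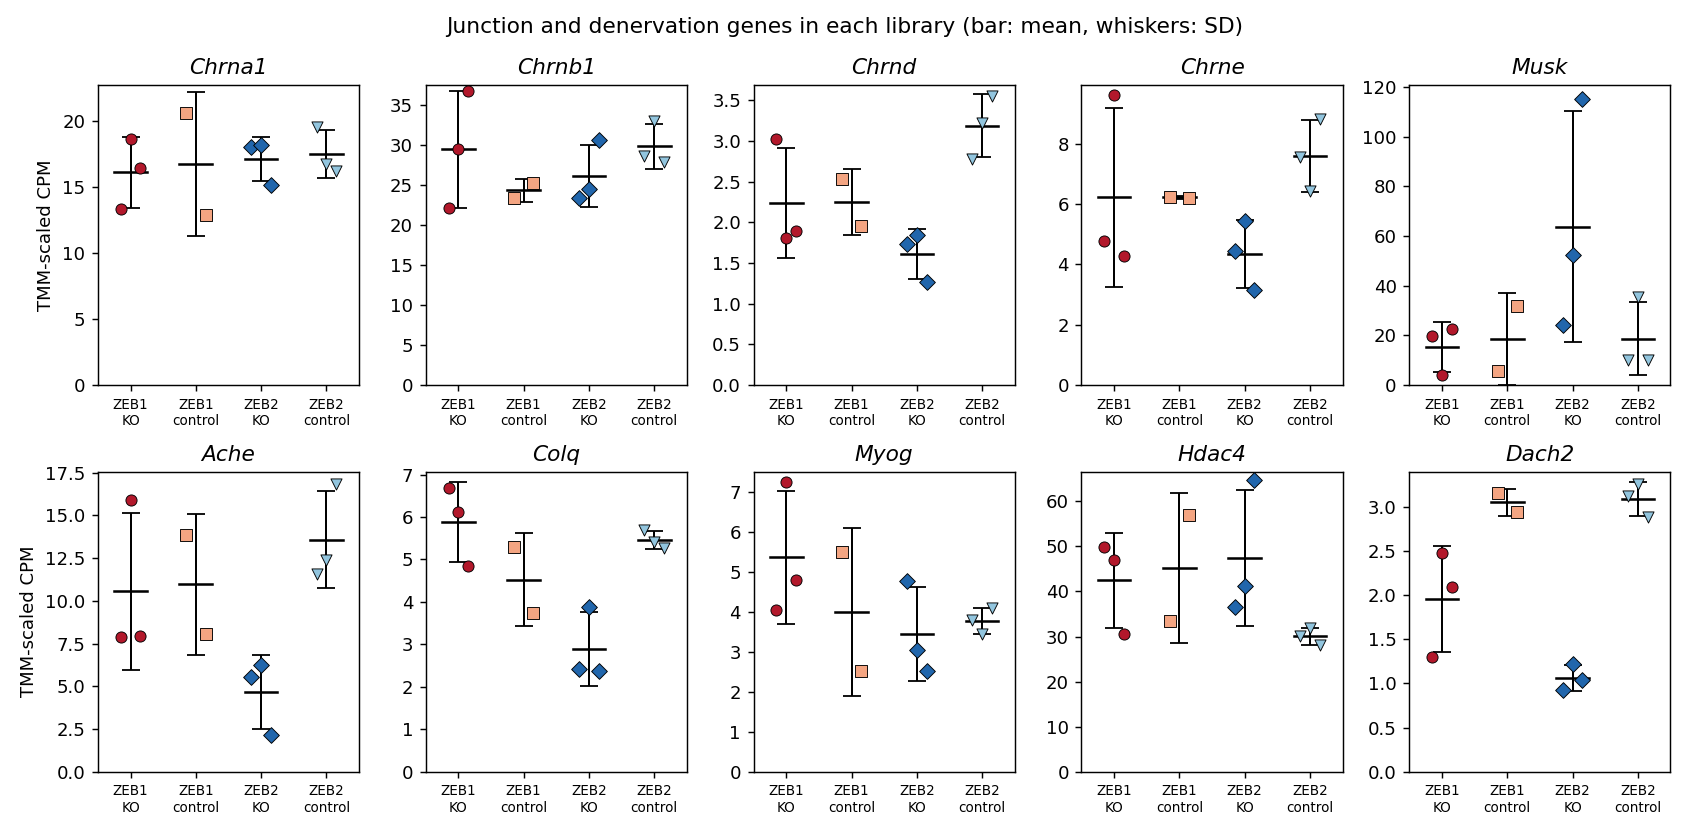
TMM-scaled CPM of the 10 members, 1 panel each with its own axis, points for libraries and lines for group means, knockouts left of the controls of their line. Dach2, Chrnd, Chrne, Colq and Ache lie lower, and Hdac4 higher, in all 3 ZEB2 knockout libraries than in any ZEB2 control.

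In ZEB1 knockouts Dach2 was the 1 member whose libraries did not overlap with those of the controls. Dach2 had 1.30, 2.48 and 2.09 CPM in ZEB1 knockouts, against 3.16 and 2.94 CPM in ZEB1 controls, so all 3 knockout libraries were lower. Its log2 fold change was -0.64 ± 0.27 (SE, edgeR, unadjusted p = 0.0393, adjusted p = 1.000). Its level in each ZEB1 knockout library nevertheless lay above that of each ZEB2 knockout library. Without ZEB1_KO 1, the lowest library, the log2 fold change was -0.43.

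The receptor subunits overlapped between ZEB1 knockouts and ZEB1 controls. Chrna1 had 13.3, 18.6 and 16.4 CPM in ZEB1 knockouts and 20.6 and 12.9 CPM in ZEB1 controls. Chrnb1 had 22.1, 29.5 and 36.7 CPM in ZEB1 knockouts and 23.3 and 25.3 CPM in ZEB1 controls, a log2 fold change of 0.28 ± 0.20 (SE). The knockout pools thus spread more widely in Chrnb1 than the control pools did. Chrnd had 3.02, 1.80 and 1.89 CPM in ZEB1 knockouts and 2.53 and 1.96 CPM in ZEB1 controls. Chrne had 4.77, 9.63 and 4.27 CPM in ZEB1 knockouts and 6.25 and 6.19 CPM in ZEB1 controls. ZEB1_KO 2 held the highest Chrne level of all libraries, and the other ZEB1 knockout libraries lay below both controls.

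Musk had 19.9, 3.99 and 22.6 CPM in ZEB1 knockouts and 5.62 and 31.8 CPM in ZEB1 controls. ZEB1_KO 2 and ZEB1_control 2 were the low libraries, so the spread lay within both groups, and the log2 fold change of -0.27 had an SE of 0.94. Leaving out single libraries moved it between -1.07 and 1.44, the highest without ZEB1_control 3. Ache had 7.89, 15.9 and 7.95 CPM in ZEB1 knockouts and 13.9 and 8.04 CPM in ZEB1 controls, with the high values in the same 2 pools that were low in Musk. Colq had 6.69, 6.12 and 4.85 CPM in ZEB1 knockouts and 5.29 and 3.74 CPM in ZEB1 controls, a log2 fold change of 0.38 ± 0.26 (SE). Myog had 4.06, 7.24 and 4.79 CPM in ZEB1 knockouts and 5.49 and 2.52 CPM in ZEB1 controls, with a log2 fold change of 0.42 and an SE of 0.37. Hdac4 had 49.9, 46.9 and 30.5 CPM in ZEB1 knockouts and 33.5 and 57.0 CPM in ZEB1 controls, so neither Myog nor Hdac4 was separated between the groups.

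In the ZEB1 comparison 0 of 10 members passed in edgeR, where 0% of genes did, and DESeq2 and limma-voom called 0 members, against 0.136% and 0.00649% of genes. In 1 of 10 members, Dach2, the groups did not overlap and the edgeR unadjusted p was under 0.05, against 13.9% and 3.24% of all genes. The median log2 fold change over the members was -0.030, against 0.0069 over all genes. Leaving out 1 library turned the sign of Hdac4, Myog, Chrna1, Chrnd, Chrne, Musk and Ache in this comparison.

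**Figure D3:**
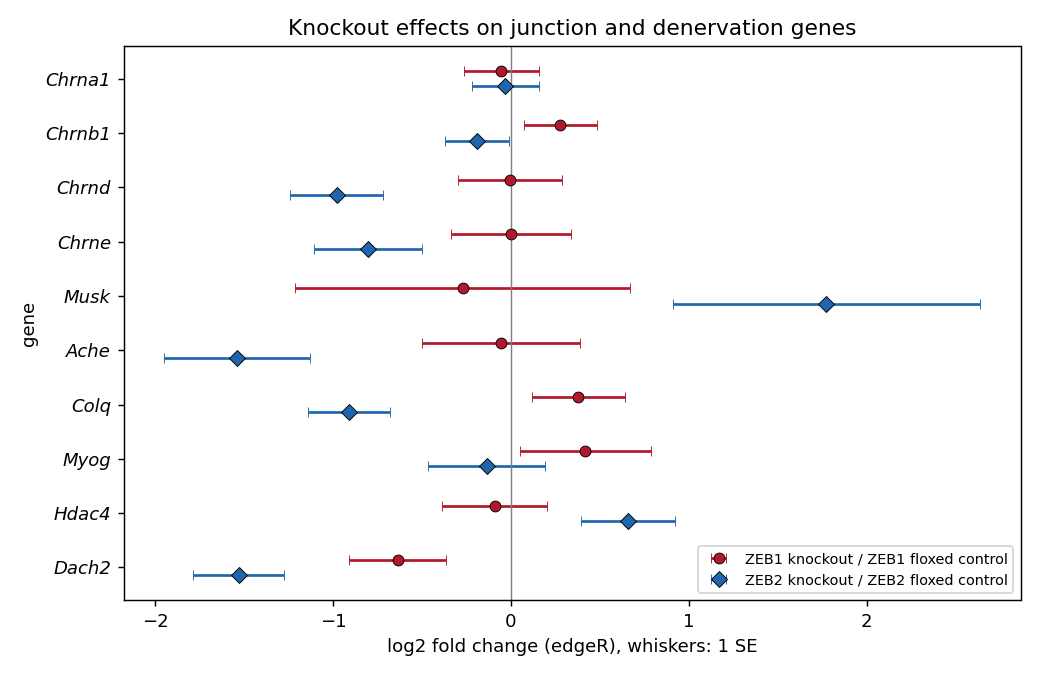
Log2 fold change of each member in ZEB1 knockouts and in ZEB2 knockouts, each against the floxed controls of its line, with bars of 1 SE from the edgeR fit. Ache (-1.54), Dach2 (-1.53), Chrnd (-0.98), Colq (-0.91) and Chrne (-0.81) lie below 0 by more than 2 SE in ZEB2 knockouts, and Dach2 alone does so in ZEB1 knockouts.

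The difference between the knockout effects was tested directly, as the ZEB1 effect minus the ZEB2 effect. It was positive for the genes that were low in ZEB2 knockouts. The ZEB2 effect enters this difference with its sign turned, so for genes picked as low in ZEB2 knockouts a positive sign is no separate result. For Colq the effects were 0.38 in ZEB1 knockouts and -0.91 in ZEB2 knockouts, a difference of 1.29 ± 0.35 (SE, edgeR, unadjusted p = 0.00344, adjusted p = 0.516). The difference was 1.49 (SE 0.61) for Ache, 0.97 (SE 0.39) for Chrnd and 0.89 (SE 0.38) for Dach2, with edgeR unadjusted p of 0.0333, 0.0309 and 0.0363. In Chrne it was 0.81 (edgeR unadjusted p = 0.105), in Hdac4 -0.75 (0.0814) and in Musk -2.05 (0.136). Of the 10 members 0 passed after adjustment (0% of genes in edgeR, and 0 members in DESeq2 against 0.113% of genes), and 4 had an unadjusted p under 0.05, against 9.26% of genes. With the male share as a covariate the difference was -0.43 for Musk and 0.40 for Chrne, and for Musk it was -0.35 without ZEB1_control 3 and -1.36 without ZEB2_KO 3.

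Averaged over both lines, Dach2 had a log2 fold change of -1.08 ± 0.19 (SE, edgeR, unadjusted p = 0.000107, adjusted p = 0.181). It was lower in each of the 6 knockout libraries than in any control of its line, and DESeq2 called it (adjusted p = 0.000541). Ache averaged -0.80 (edgeR unadjusted p = 0.0226, adjusted p = 0.197) and Chrnd -0.49 (edgeR unadjusted p = 0.0275, adjusted p = 0.204), with effects in the ZEB1 line of -0.053 for Ache and -0.0077 for Chrnd. Of the 10 members 0 passed in edgeR (0% of genes), 3 had an unadjusted p under 0.05 (21.4% of genes), and 1, Dach2, was called by DESeq2 (3.03% of genes).

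The floxed controls of the lines were also set against each other. ZEB2 controls had more Chrnd than ZEB1 controls (2.78, 3.22 and 3.55 CPM in ZEB2 controls, 2.53 and 1.96 CPM in ZEB1 controls), a log2 fold change of 0.50 ± 0.29 (SE, edgeR unadjusted p = 0.112). Hdac4 ran the other way, with 30.1, 31.9 and 28.2 CPM in ZEB2 controls and 33.5 and 57.0 CPM in ZEB1 controls, a log2 fold change of -0.59 ± 0.29 (SE, edgeR unadjusted p = 0.0674). Leaving out single libraries moved the Hdac4 value between -0.95 and -0.17. The control groups did not overlap for 4 of 10 members (Chrnb1, Chrnd and Chrne higher and Hdac4 lower in ZEB2 controls), against 16.6% of genes. None of the 10 had an unadjusted p under 0.05 (3.32% of genes) or passed in edgeR (0.0195% of genes), DESeq2 (0.104% of genes) or limma-voom (0.013% of genes). Each knockout effect above is measured within its own line.

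Within the groups, Musk varied more than nearly any other gene. Its within-group SD was 1.29 on the log2 scale, rank 153 of 15416 genes, against 0.290 for the median gene. From 3.99 CPM in ZEB1_KO 2 (124 counts) to 115 CPM in ZEB2_KO 3 (4088 counts) it spanned a 28.8-fold range. Ache followed with an SD of 0.596, Myog with 0.452, Chrne with 0.414 and Hdac4 with 0.376. The remaining members were near the median gene, from 0.293 for Chrnd down to 0.237 for Chrnb1. The kinase of the synapse and the receptor subunits it clusters therefore differed widely in how much they moved between pools of the same genotype.

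**Figure D4:**
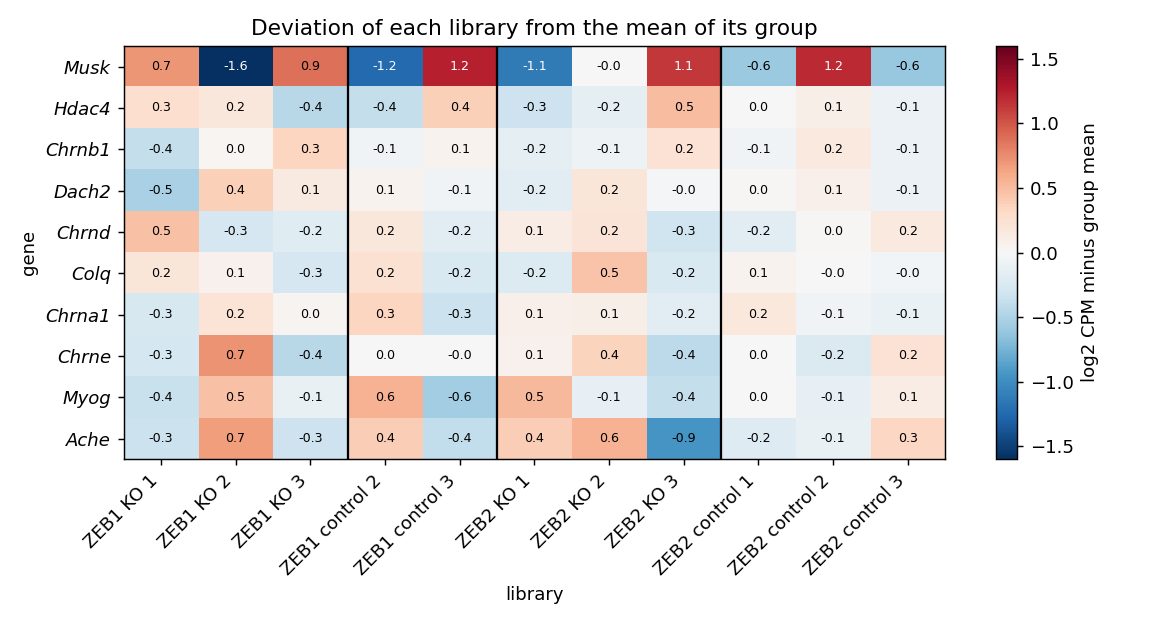
Deviation of each member from its group mean in each library, on a log2 CPM scale with a prior count of 2. Musk shows the strongest colours, and Myog, Chrne and Ache mostly take the colour opposite to Musk.

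The order of the pools was then compared between genes over the 10 pairs of libraries of the same group, a comparison chosen after the values were seen. Myog and Chrne were each ordered opposite to Musk in 9 of the 10 pairs, as were 6.24% of all genes. Ache was opposite in 7 pairs, Chrna1, Chrnd and Colq in 6, and Dach2 in 4. Chrnb1 was ordered like Musk in 9 pairs, as were 9.37% of all genes, and Hdac4 in 8. No share of all genes was computed for fewer than 9 pairs, and pairs of a group share libraries. Without ZEB2_KO 3, the library with the most Musk, Myog and Chrne were opposite in 7 of 8 pairs and Chrnb1 was alike in 7. The wasting genes that myogenin is known to drive after denervation went with Musk instead. Trim63 (MuRF1) was ordered like Musk in 8 pairs and Fbxo32 (atrogin-1) in 9, while Runx1 and Gadd45a, a transcription factor and a stress gene that both rise in denervated muscle, were ordered like Musk in all 10. Trim63 ran from 770 CPM in ZEB1_control 2, where Myog was at 5.49 CPM, to 7378 CPM in ZEB2_KO 3, where Myog was at 2.53 CPM. Pools with much Musk and Trim63 thus mostly had less Myog and Chrne than other pools of their group.

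**Figure D5:**
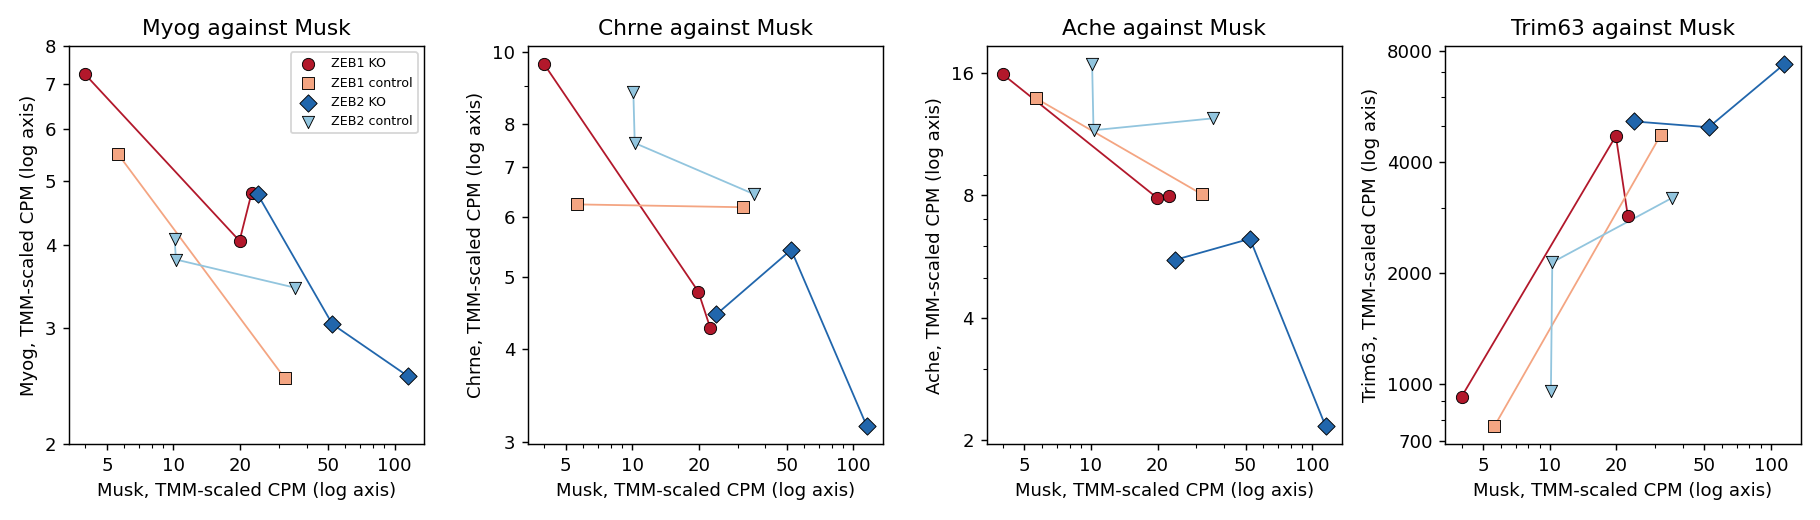
Myog, Chrne, Ache and Trim63 against Musk in TMM-scaled CPM (log axes), 1 point per library, with lines joining the libraries of 1 group in order of Musk. Within groups most lines fall for Myog and Chrne, which were ordered opposite to Musk in 9 of 10 pairs, and most rise for Trim63.

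By Pearson's r of log2 CPM centred on the group means over the 11 libraries, among 11542 genes, the genes most like Musk were Mterf3, a mitochondrial transcription factor (r = 0.99), Eif2b4, a subunit of the translation initiation factor eIF2B (0.99), and Nckap1, a subunit of the WAVE actin regulator (0.99). Those most like Myog were Sema6d, a semaphorin (0.97), Poll, a DNA repair polymerase (0.97), and Cflar, an inhibitor of caspase activation (0.97). For Chrna1 they were Trim12a (0.98), Xylt2 (0.97) and Zfp759 (0.96), and for Chrne they were Prr29 (0.96), Emid1 (0.95) and Csnk1g1 (0.94). None of the other members was among the 3 closest genes of Musk, Myog, Chrna1 or Chrne, the members for which this was computed. These values describe libraries in which the genes share depth and scaling, and carry no test.

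Of the partners of MuSK, Agrn was ordered opposite to Musk within the groups in 9 of the 10 pairs, as were 6.24% of all genes. Lrp4 and Rapsn were opposite in 8 pairs and Dok7 in 7, counts for which no share of all genes was computed. Lrp4, the agrin receptor that switches MuSK on, had 7.64, 4.97 and 3.77 CPM in ZEB2 knockouts and 10.6, 7.60 and 10.2 CPM in ZEB2 controls. Its log2 fold change was -0.80 ± 0.28 (SE, edgeR, unadjusted p = 0.0162, adjusted p = 0.0987), the other sign from that of Musk, and the groups overlapped only in that ZEB2_KO 1 stood just above ZEB2_control 2. Per length, Musk stood at 8.74, 29.3 and 84.9 times the level of Lrp4 in ZEB2 knockouts and at 2.68, 13 and 2.77 times in ZEB2 controls. This ratio overlapped between the groups. Agrn, the agrin gene, had 26.2, 22.3 and 18.1 CPM in ZEB2 knockouts and 28.4, 23.2 and 28.7 CPM in ZEB2 controls, a log2 fold change of -0.27. Rapsn, the receptor clustering protein, had 16.6, 15.3 and 9.995 CPM in ZEB2 knockouts and 16.1, 13.3 and 16.8 CPM in ZEB2 controls. Dok7, the cytoplasmic activator of MuSK, had 11.7, 7.73 and 5.83 CPM in ZEB2 knockouts and 12.2, 9.99 and 12.3 CPM in ZEB2 controls. ZEB2_KO 3, with the most Musk, had the least Lrp4, Agrn and Dok7 of the ZEB2 libraries, and the least Rapsn.

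In ZEB1 knockouts Dok7 was higher, with 20.1, 11.01 and 22.1 CPM in ZEB1 knockouts and 10.5 and 9.76 CPM in ZEB1 controls, a log2 fold change of 0.81 ± 0.32 (SE, edgeR, unadjusted p = 0.0284, adjusted p = 1.000). Lrp4 had 4.87, 8.72 and 5.86 CPM in ZEB1 knockouts and 9.70 and 7.84 CPM in ZEB1 controls, with a log2 fold change of -0.44 and edgeR unadjusted p = 0.190. The wasting genes Trim63 and Fbxo32 overlapped between ZEB1 knockouts and ZEB1 controls. They were higher in every ZEB2 knockout library, with log2 fold changes of 1.48 for Trim63 (edgeR, adjusted p = 0.175) and 1.20 for Fbxo32 (edgeR, adjusted p = 0.113).

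Beyond the members, 32 of 34 further junction genes could be tested (not Chrng or the neuregulin gene Nrg1). In ZEB2 knockouts 26 were lower and 6 higher. Their median effect was -0.40 on the log2 scale, against -0.047 over all genes. Of them 14 had an unadjusted edgeR p under 0.05, all lower, where 17.3% of genes were lower at that p, 0 passed after adjustment and DESeq2 called 7 lower, against 8.91% of all genes. The synaptic laminin chain Lama4 had 14.6, 13.97 and 10.2 CPM in ZEB2 knockouts, against 22.4, 25.5 and 32.8 CPM in ZEB2 controls (log2 fold change -1.06, edgeR adjusted p = 0.0775). Lamb2, the laminin beta chain of the synaptic cleft, followed with -0.46 (edgeR adjusted p = 0.0787). Etv5, an ETS factor of synaptic nuclei, had a log2 fold change of -0.52 (edgeR adjusted p = 0.0787) and Utrn, the gene for the synaptic dystrophin relative utrophin, one of -0.54 (edgeR adjusted p = 0.0793).

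In ZEB1 knockouts 14 of these 32 genes were higher and 18 lower, with a median of -0.036. Bche, butyrylcholinesterase, had 2.99, 6.89 and 6.82 CPM in ZEB1 knockouts, against 11.5 and 10.2 CPM in ZEB1 controls (log2 fold change -0.96, edgeR unadjusted p = 0.0135). Bche was also lower in every ZEB2 knockout library, with 8.99, 7.75 and 5.72 CPM in ZEB2 knockouts, against 16.5, 10.6 and 12.8 CPM in ZEB2 controls. Sntb2, a syntrophin of the dystrophin complex, was lower in both lines, by log2 fold changes of -0.35 in ZEB1 knockouts and -0.37 in ZEB2 knockouts. In ZEB1 knockouts 4 of the 32 had an unadjusted edgeR p under 0.05, 2 higher and 2 lower, where 3.24% of all genes did, and 0 passed.

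Of 23 further genes known to respond to denervation, all were tested, and in ZEB2 knockouts they were split, with 11 higher, 12 lower and a log2 median of -0.052. At an unadjusted edgeR p under 0.05 there were 7 higher and 6 lower, where 15.9% of all genes were higher and 17.3% lower, and 0 passed after adjustment. DESeq2 called 3 higher and 4 lower, against 10.5% and 8.91% of all genes. The 6 lower genes were Myh8, Myh3, Mef2c, the deacetylase gene Hdac9, the myogenic factor gene Myod1 and the adhesion molecule gene Ncam1. Myh8, perinatal myosin, had 2.81, 2.23 and 2.42 CPM in ZEB2 knockouts, against 5.66, 3.64 and 5.33 CPM in ZEB2 controls (log2 fold change -0.97, edgeR adjusted p = 0.0775). Myh3, embryonic myosin, had 1.94, 3.45 and 1.30 CPM in ZEB2 knockouts, against 3.74, 6.06 and 9.37 CPM in ZEB2 controls (log2 fold change -1.51, edgeR adjusted p = 0.0884). Mef2c, a partner of the myogenic factors that activates Myog, had 107, 120 and 51.2 CPM in ZEB2 knockouts, against 189, 249 and 331 CPM in ZEB2 controls (log2 fold change -1.47, edgeR adjusted p = 0.0793). Hdac9 had a log2 fold change of -1.37 (edgeR adjusted p = 0.104, DESeq2 adjusted p = 0.0360). Myod1 had 2.57, 3.66 and 0.338 CPM in ZEB2 knockouts, against 5.91, 7.70 and 13.3 CPM in ZEB2 controls (log2 fold change -2.02, edgeR adjusted p = 0.112), and Ncam1 had a log2 fold change of -0.46 (edgeR adjusted p = 0.102). Each of these 6 was lower in every ZEB2 knockout library than in any ZEB2 control, as were 22.1% of all genes. The 6 had been picked by their p in this same comparison, so the lack of overlap is no separate result. Among the higher genes were Gadd45a, with 88.8, 96.4 and 149 CPM in ZEB2 knockouts and 43.4, 75.3 and 24.1 CPM in ZEB2 controls, and Gdf5, a BMP ligand that protects denervated muscle (log2 fold change 1.54, edgeR adjusted p = 0.0960, at 18, 25 and 39 counts in ZEB2 knockouts and 8, 10 and 7 counts in ZEB2 controls).

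In ZEB1 knockouts the denervation genes were 16 higher and 7 lower (log2 median 0.076), against 7899 higher and 7515 lower of all genes (log2 median 0.0069). Of the 23, 1 had an unadjusted edgeR p under 0.05, where 3.24% of all genes did. It was Tnfrsf12a, the receptor of the wasting cytokine TWEAK, with 59.1, 26.6 and 87.0 CPM in ZEB1 knockouts and 25.7 and 23.6 CPM in ZEB1 controls (log2 fold change 1.22, edgeR unadjusted p = 0.0229). Myh3 was lower in each ZEB1 knockout library, at 1.23, 3.48 and 3.25 CPM in ZEB1 knockouts and 6.64 and 4.13 CPM in ZEB1 controls. Averaged over both lines its log2 fold change was -1.26 (edgeR, adjusted p = 0.181). The stress-induced ankyrin protein gene Ankrd1 had 0.77 and the deacetylase gene Hdac5 had 0.26 in ZEB1 knockouts, and Hdac9 averaged -0.97 over both lines (edgeR, adjusted p = 0.199).

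Markers of other cells in the muscle moved with the ZEB2 comparison. All 10 tested Schwann cell markers, the glia that cap the junction and wrap the nerve, were lower, with a summed level of 167 to 270 CPM in ZEB2 knockouts and 252 to 495 CPM in ZEB2 controls. They were also lower in ZEB1 knockouts, at 97.8 to 323 CPM in ZEB1 knockouts and 243 to 389 CPM in ZEB1 controls. In both lines the summed levels overlapped between the groups. In ZEB2 knockouts all 5 satellite cell markers were lower as well, at 23.5 to 26.8 CPM in ZEB2 knockouts and 27.1 to 29.1 CPM in ZEB2 controls. Endothelial markers summed to 252 to 283 CPM in ZEB2 knockouts and 295 to 374 CPM in ZEB2 controls, and macrophage markers to 43.6 to 49.6 CPM in ZEB2 knockouts and 56.8 to 71.9 CPM in ZEB2 controls. The satellite, endothelial and macrophage sums did not overlap between ZEB2 knockouts and ZEB2 controls, where 43.4% of single genes did not overlap. Most of the satellite sum came from Cdh15, with a mean of 18.6 CPM in both ZEB2 groups. Of the macrophage markers 6 were lower and 1, Cd68, was higher, with means of 4.26 CPM in ZEB2 knockouts and 3.82 CPM in ZEB2 controls. All 6 tendon markers were lower in both lines, with sums of 42.9 to 54.3 CPM in ZEB1 knockouts and 95.6 to 104 CPM in ZEB1 controls, and of 54.8 to 68.3 CPM in ZEB2 knockouts and 86.0 to 165 CPM in ZEB2 controls. Fibroblast markers summed to 1530 to 2135 CPM in ZEB1 knockouts and 2457 to 2497 CPM in ZEB1 controls, and overlapped between the ZEB2 groups. The summed level of the 9 muscle fibre markers was higher in each ZEB2 knockout library, at 84947 to 91588 CPM in ZEB2 knockouts and 78821 to 82529 CPM in ZEB2 controls, though 4 of the 9 were higher and 5 lower. The share of counts from the mitochondrial genome was 12.1 to 14.9% in ZEB2 knockouts and 16.004 to 18.01% in ZEB2 controls, with no overlap. The part of these cell types and of the mitochondrial share in the lower synaptic genes of ZEB2 knockouts was not tested.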

How the data were processed

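Per the labels' protocols, poly(A) RNA was selected from total RNA and sequenced from a kit that keeps the strand. The values the authors deposited are estimated counts for each gene, rounded to whole numbers and not scaled. The submitters' processing notes name STAR, RSEM and DESeq2 and, as the build, GRCm38, without versions. How strand was treated in counting, and which annotation was used, is not given in the sources used here, so counts of overlapping genes are uncertain. No pair of replicate libraries agreed within counting noise.

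Counts were tested in R 4.3.3 with edgeR 4.0.16. The filter filterByExpr (minimum count 10, minimum total 15) left 15416 genes, libraries were scaled by TMM, and a robust quasi-likelihood fit of 4 group means over the 11 libraries gave every comparison, with Benjamini-Hochberg adjustment over all genes tested and a threshold of 0.05. Each SE was obtained from the log2 fold change and the square root of its F statistic. The script was tested on simulated counts. DESeq2 1.42.0 and limma-voom (limma 3.58.1), other scalings, low-count filters, fits on the compared groups alone, a replicate block, the male share of each pool (from Y-linked genes) and leaving out each library were the alternatives. Coordinates and exon lengths came from GENCODE M21, promoters from RefSeq.

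The members and the lists of other genes were chosen with earlier results of these data known. From the junction and denervation lists the text names the 4 genes of each with the smallest unadjusted p in the ZEB1, ZEB2 and average effects, leaving out 1 gene that is not reported here, plus Lrp4, Agrn, Dok7, Rapsn, Chrng, Trim63 and Fbxo32. Runx1, Gadd45a, Cdkn1a, Fbxo30, Mef2a, Myod1 and Ncam1 were named after their values were seen.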

Additional observations from a re-analysis of the deposited data

How the results depend on the processing

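The count of members called was 0 under each alternative in the ZEB1 comparison, in the difference of effects and between the floxed controls. In the ZEB2 comparison, where edgeR called 0 members, DESeq2 called 4, edgeR without a low-count filter called 1 (Dach2) and edgeR on the ZEB2 groups alone called 5, and over all genes these settings called 2587, 348 and 2077 against 0. In the average effect DESeq2 called 1 member, Dach2. Dach2, Chrnd, Chrne, Colq, Ache, Hdac4 and Musk kept the sign of their ZEB2 effect under each alternative. Leaving out single libraries gave ranges of -1.64 to -1.44 for Dach2, -1.82 to -1.18 for Ache, -1.19 to -0.77 for Colq, -1.09 to -0.81 for Chrnd, -1.001 to -0.60 for Chrne, 0.39 to 0.82 for Hdac4 and 1.06 to 2.65 for Musk.

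Signs turned only for effects near 0 or with wide errors. In ZEB1 knockouts, leaving out single libraries gave ranges of -0.44 to 0.34 for Hdac4, -0.038 to 1.07 for Myog, -0.36 to 0.31 for Chrna1, -0.29 to 0.17 for Chrnd, -0.46 to 0.21 for Chrne, -1.07 to 1.44 for Musk and -0.47 to 0.38 for Ache. In ZEB2 knockouts they ran from -0.44 to 0.062 for Myog and from -0.086 to 0.067 for Chrna1. The ZEB1 effect of Chrnd was 0.00013 with DESeq2, 0.0017 with RLE scaling, 0.0090 without a low-count filter and 0.0033 on the ZEB1 groups alone, and that of Chrne was 0.0061, 0.0058, 0.0084 and 0.0028 under these. With the male share as a covariate, Musk had 0.16 in ZEB1 knockouts, and Myog 0.19 and Chrna1 0.069 in ZEB2 knockouts. The cause of these turns was not tested.

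Whether the replicate numbers pair the samples could not be decided. Deviations of same-numbered libraries correlated at 0.465 and 0.174 in the ZEB1 line and at 0.195, -0.027 and -0.313 in the ZEB2 line. With 2 controls in the ZEB1 line, centred on their mean, the other control always gives the same value with the opposite sign. The numbers of the ZEB1 controls came from the sample titles, and their source names number them otherwise. With the replicate block 0 members were called in any comparison, and the ZEB1 effects of Chrna1, Chrne and Ache were 0.10, 0.055 and 0.091. Dach2 had -0.42 in ZEB1 knockouts and -1.54 in ZEB2 knockouts under the block. The low counts of Chrnd, Dach2 and Chrng limit their precision, as do 2 or 3 pools per group.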
